A study of Mus musculus with 9 samples.

Results

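The cytosolic ribosome makes every protein encoded in the nucleus, and the genes for its protein subunits were described here in mouse cardiomyocytes, the beating cells of heart muscle, with and without more of the long noncoding RNA Firre. The members are the protein-coding genes whose symbol has the form of a ribosomal protein name (Rpl or Rps with a number, Rplp0 to Rplp2) plus Rpsa, without the S6 kinases and the pseudogenes, and they number 83 of 55487 gene rows, 32 of the small and 51 of the large subunit. Total RNA came from isolated cardiomyocytes in 3 groups of 3 libraries. One group was given Firre in AAV9, a serotype of adeno-associated virus with a strong preference for the heart (the Firre group). Another was given the matching AAV9 vector without Firre as a negative control. The last is named only as a blank control, and AAV9 stands in the names of the other 2 groups only. The sources used here do not give strain, age, sex, vector dose, promoter or time after infection. The titles call the 3 libraries of each group biological replicates, without saying whether they come from separate animals or cultures. The p-values therefore measure only how these samples spread, and how far that spread reflects separate animals is not known.

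Ribosomal proteins assemble with ribosomal RNA in the nucleolus into a small subunit, which decodes the mRNA, and a large subunit, which joins amino acids into protein. Almost all are needed in equal numbers, and their mRNAs are among the most abundant in any cell. Most of these mRNAs begin with a cytosine followed by a run of pyrimidines, the 5′ terminal oligopyrimidine or TOP motif, through which the kinase complex mTORC1 and the RNA-binding protein LARP1 control how many of them are translated. The family is also known for its many retrocopies, intronless copies of the mRNA inserted elsewhere in the genome, and in the heart for Rpl3l, a paralog of Rpl3 made in striated muscle.

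Sequence at the start sites is shown first, because a TOP run was more frequent at the members' listed starts than at those of all genes. The RefSeq promoter table (GRCm38.p6) held 75 starts of 63 members, read from 15 bases before to 15 bases after the start, 5′ to 3′ on the strand of the gene, with the longest run of C or T in capitals. The first 4 lines are members with a long run: Rps6 (chr4:86857353-86857382, minus strand), Rpl34 (chr3:130730323-130730352, minus), the second of 3 starts of Rpl35a (chr16:33056467-33056496, plus) and Rplp2 (chr7:141447636-141447665, plus). The last 3 have none: the muscle paralog Rpl3l at its upstream start (chr17:24727811-24727840, plus), Rpl7l1 (chr17:46782642-46782671, minus) and Rps3a1 (chr3:86142654-86142683, minus).
Rps6: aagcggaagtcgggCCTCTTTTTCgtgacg
Rpl34: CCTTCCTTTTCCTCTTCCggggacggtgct
Rpl35a: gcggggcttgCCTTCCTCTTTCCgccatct
Rplp2: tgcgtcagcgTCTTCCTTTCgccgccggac
Rpl3l: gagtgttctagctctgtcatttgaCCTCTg
Rpl7l1: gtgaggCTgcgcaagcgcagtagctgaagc
Rps3a1: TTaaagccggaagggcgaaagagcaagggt
An unbroken run of at least 8 C or T on the gene's strand lay in this window at 28 of the 75 starts of members (37.3%) and at 12% of the 32851 starts of all genes in the table. The reverse, a run of at least 8 A or G, was at 4% of the members' starts against 13.2% of all. A start base C followed by at least 4 C or T stood at 13 of the 75 (17.3%) against 2.51% of all starts. Of the 27 members with such a run at a listed start, all tested, 2 rose and 6 fell between the negative control and the Firre group, and of the 33 tested members with a listed start and no run 3 rose and 13 fell, with median log2 fold changes of -0.06 and -0.12, where 27.5% of all genes were called higher and 28.4% lower. A match describes the letters at the listed start only.

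The values are raw counts per gene, of 15591542 to 22697016 per library, and levels are given as CPM, the count scaled to a common library size with TMM factors. The targeted RNA followed the labels: Firre stood at 32.5, 34.4 and 32.7 CPM with the control vector and at 62.9, 69.7 and 62.6 CPM with the Firre vector, a log2 fold change of 0.97 (SE 0.07). Defining markers of cardiomyocytes were present in every library. Their sum over 15 genes was 39069 to 42105 CPM in the negative control and 62669 to 65869 CPM in the Firre group. Of the 15, 14 rose and 1 fell, where 27.5% of all genes were called higher and 28.4% lower. Markers of the other cells of the heart moved the other way. The sum over 15 fibroblast markers was 10264 to 10450 CPM in the negative control and 4721 to 5274 CPM in the Firre group (0 rose and 14 fell), 15 endothelial markers gave 1615 to 1626 CPM and 702 to 729 CPM (0 and 13), 10 smooth muscle and pericyte markers 2959 to 3343 CPM and 1533 to 1677 CPM (1 and 9), and 15 macrophage markers 74.5 to 80.4 CPM and 12 to 13.4 CPM (0 and 12 of 12 tested, with C1qa at 0 counts in the Firre group). In the blank control these sums were 10244 to 10710 CPM for fibroblasts and 96.1 to 111 CPM for macrophages, with 0 markers of either called between the controls. The endothelial sum was 1691 to 1756 CPM in the blank, above the negative control without overlap, and 1 marker, Vwf, was lower in the negative control (log2 fold change -0.39, SE 0.07, adjusted p = 0.036). Their part in the results on ribosomal proteins was not tested, and in bulk RNA fewer cells of a type and less RNA per cell cannot be told apart.

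Ribosomal protein genes together took 2.73%, 2.56% and 2.83% of the gene counts in the negative control and 2.34%, 2.46% and 2.54% in the Firre group, so the groups did not overlap. In the blank control the share was 2.89%, 2.82% and 3.07%, above every Firre library and overlapping the negative control. Without the mitochondrially encoded genes, which took 5.89% to 6.62% of the counts in the negative control and 7.07% to 8.07% in the Firre group, the shares were 2.90%, 2.74% and 3.01% against 2.54%, 2.65% and 2.75%, and 1 Firre library stood just above the lowest negative control. The mean share was 2.93% ± 0.132 for the blank, 2.71% ± 0.134 for the control vector and 2.45% ± 0.102 for the Firre vector (SD over 3 libraries). Levels can be compared between genes only per length. Per kilobase of transcript the highest in the negative control were Rpl41, the smallest ribosomal protein (1874 ± 247 CPM per kb), the stalk protein Rplp1 (1307 ± 58.1) and Rpl23a, which lies at the exit of the peptide tunnel and contacts the signal recognition particle (933 ± 75.7; SD, n = 3 each). The median member stood at 344 CPM per kb. Within the negative control a tested member's CPM varied with a median coefficient of variation of 6.53%.

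A few rows were almost empty although their proteins are part of every ribosome. Rpl24 held 3, 1 and 1 counts in the negative control libraries, Rps10 stood at 2.26, 1.98 and 1.99 CPM and Rpl21 at 3.65, 3.29 and 3.21 CPM, or 2.34 and 1.82 CPM per kb. Rpl13a, Rpl34 and Rpl35a stood at 13.1, 17.1 and 20.3 CPM per kb. Exons of another gene on the same strand cover 71.5% of the Rpl24 transcript, 59.3% of Rpl13a and 53.6% of Rps10, and the sources used here do not say how such bases were counted. The retrocopy Rps10-ps2 stood at 173 ± 6.20 CPM in the negative control (SD, n = 3), far above the row of Rps10. Why these rows are low was not tested. The testis paralogs Rpl10l and Rpl39l were at 0 counts in every library and at 0 to 8 counts, respectively. Rpl10l, Rpl24 and Rpl39l did not pass the low-count filter, which left 80 tested members.

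Between the negative control and the Firre group most ribosomal protein genes moved little, and those that moved were mostly lower. Of the 80 tested, 6 rose and 24 fell by edgeR's quasi-likelihood test at an adjusted p under 0.05, and 50 were not called. Over all 15633 genes tested, 27.5% were called higher and 28.4% lower, 56.0% in all, beside 37.5% of the members. The share of members that fell is near this background and is no feature of the family, and the share that rose is 7.50%. The median log2 fold change was -0.07 against 0.00 for all genes tested. It was -0.03 without negative control replicate 3, -0.04 without Firre replicate 1, and -0.12 without either negative control replicate 2 or Firre replicate 3. In the fit of all libraries 73 members lay within 0.3 of no change. The central 80% of members spanned -0.24 to 0.18, and the central 80% of all genes -0.84 to 0.70. The 3 libraries of one group lay wholly above or below those of the other for 37 members (46.25%), against 62.4% of all genes. At least 0.3 in size and called were 5 members, against 42.7% of all genes. Levels scaled to library totals alone shifted the median of all genes to -0.05 and gave 5 higher and 33 lower members with a median of -0.13, where 23.6% of all genes were called higher and 32.3% lower.

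**Figure D1:**
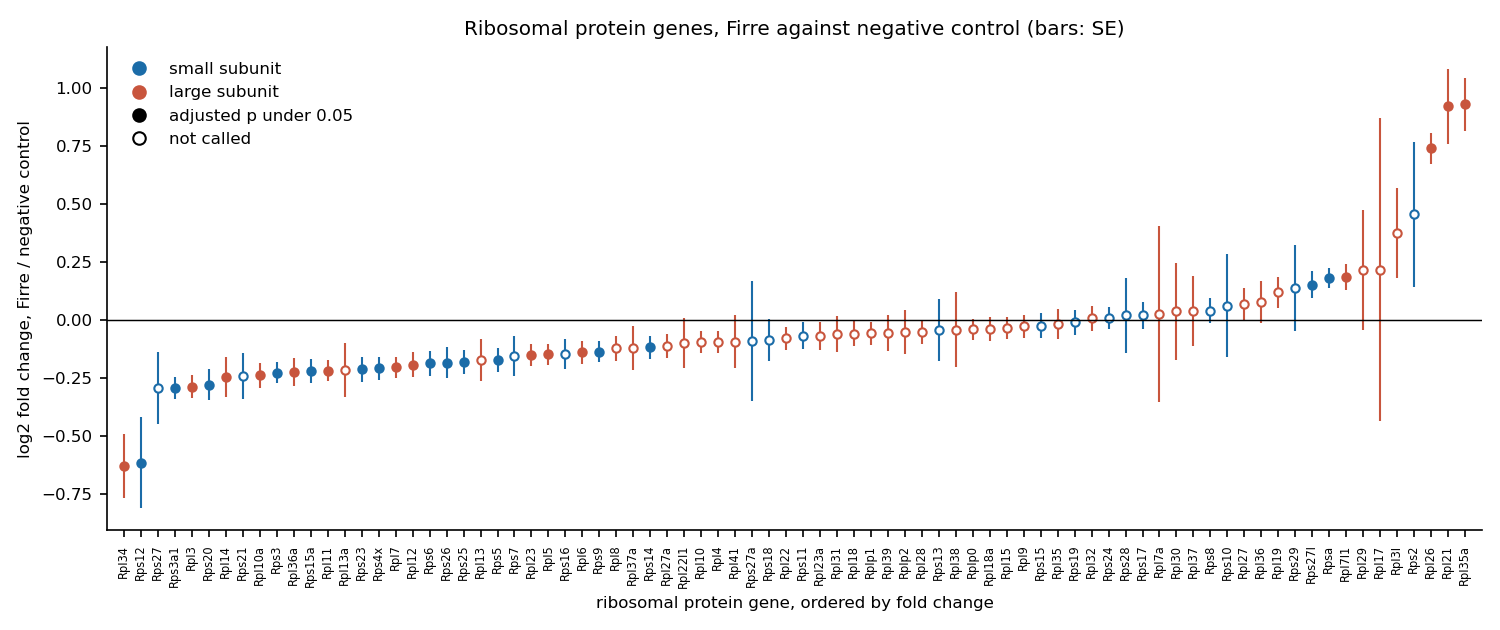
Log2 fold change of each of the 80 tested ribosomal protein genes, Firre group over negative control (vertical axis; bars are SE), in order of size along the horizontal axis, with small subunit genes in blue, large subunit genes in red and called genes filled. Most points lie between -0.3 and 0.3, the called ones below 0 are 24 and those above are 6, with Rpl35a, Rpl21 and Rpl26 farthest up and Rpl34 and Rps12 farthest down.

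In the small subunit 2 members rose and 13 fell of 32 tested, where 27.5% of all genes were called higher and 28.4% lower. The median log2 fold change was -0.13. Rps3a1, a platform protein near the mRNA exit, stood at 522, 512 and 542 CPM with the control vector and 408, 435 and 443 CPM with the Firre vector. All 3 Firre libraries were below all 3 controls, and the fall was log2 fold change -0.29, SE 0.05, adjusted p = 4.2e-06. Rps3, a protein of the mRNA entry channel whose transcript is unique in the annotation, went from 455, 440.1 and 487 CPM to 388, 392 and 399 CPM (log2 fold change -0.23, SE 0.05, adjusted p = 9.43e-05), again without overlap. Rps6, the protein that S6 kinases phosphorylate downstream of mTORC1, stood at 617, 572 and 607 CPM and 515, 524 and 538 CPM, and its groups did not overlap (log2 fold change -0.19, SE 0.05, adjusted p = 0.00385). The other members called lower, apart from Rps12, fell by 0.12 to 0.28 on the log2 scale, from Rps20 at the larger end to Rps14 at the smaller. They included Rps4x at -0.21.

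Rps12 fell farthest among the small subunit genes but with the widest error. The libraries read 246, 246 and 275 CPM with the control vector, 138, 197 and 165 CPM with the Firre vector and 298, 202 and 203 CPM for the blank. The Firre libraries lay below the negative control, and 2 of the 3 blank libraries sat close to the highest Firre library (log2 fold change -0.62, SE 0.20, adjusted p = 0.0361). The call held without Firre replicate 2 and was lost without any one of the 5 other libraries compared (adjusted p = 0.0725 to 0.102), with no low-count filter (0.0665) and with a replicate block (0.0947).

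Members of the small subunit with a known role of their own did not move as one. Rps19, the gene most often mutated in Diamond-Blackfan anaemia, stood at 192, 193 and 211 CPM and 184, 203 and 206 CPM, overlapping groups with a log2 fold change of -0.01 (95% interval -0.11 to 0.09). Rps27a, which is made as a fusion with ubiquitin, stood at 94.8, 98.2 and 110.1 CPM and 89.98, 90.4 and 104 CPM (-0.09, interval -0.60 to 0.42), with one library of the blank control, replicate 2, at 221 CPM beside 125 and 116 CPM. That interval holds both no change and every change seen among the called small subunit genes except that of Rps12, which lies just beyond its lower end. Rpsa, also known as the laminin receptor precursor, was higher, at 1130.0, 1159 and 1141 CPM with the Firre vector against 1033, 974 and 1019 CPM with the control vector, without overlap (log2 fold change 0.18, SE 0.04, adjusted p = 0.000953).

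In the large subunit 4 members rose and 11 fell of 48 tested, shares below the 27.5% of all genes called higher and 28.4% called lower. The median log2 fold change was -0.06, so the medians of the subunits differed by 0.07 on the log2 scale. Without negative control replicate 2 that difference, small minus large, was -0.03. Rpl5 and Rpl11, which with 5S ribosomal RNA bind and hold back Mdm2 and so link ribosome assembly to p53, both fell. Rpl11 went from 289.6, 279 and 292 CPM to 239.7, 249 and 251 CPM, with no overlap (log2 fold change -0.22, SE 0.05, adjusted p = 0.000184). Rpl5 went from 503, 472 and 497 CPM to 440.4, 447 and 439 CPM, likewise with no overlap (log2 fold change -0.15, SE 0.04, adjusted p = 0.00514). The others that fell included Rpl14, Rpl10a and Rpl36a at -0.25, -0.24 and -0.23, Rpl7 and Rpl12 at -0.20 and -0.19, and Rpl23 and Rpl6 at -0.15 and -0.14.

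The acidic stalk, which recruits the translational GTPases, did not change past the test. Rplp0 stood at 978, 935 and 1040.1 CPM with the control vector and 922, 979 and 968 CPM with the Firre vector, with overlapping groups. Its log2 fold change was -0.04 with a 95% interval of -0.13 to 0.05, and those of Rplp1 and Rplp2 were -0.06 (-0.15 to 0.04) and -0.05 (-0.24 to 0.13). The most abundant row, Rpl41, was at 1078, 953 and 1239.5 CPM and 981, 1047 and 1037 CPM (-0.09, interval -0.32 to 0.13), and Rpl23a at -0.07 (-0.19 to 0.05). Rpl10, placed last in the maturing large subunit, was at -0.10 (-0.19 to -0.0033) and was not called (edgeR unadjusted p = 0.0516). It was called without negative control replicate 2 (-0.15, edgeR adjusted p = 0.0158). Rpl13a, known for holding back inflammatory mRNAs after it leaves the ribosome, went from 14.1, 13.7 and 13.2 CPM to 11.4, 11.02 and 12.8 CPM, groups that did not overlap but missed the threshold (log2 fold change -0.22, SE 0.12, adjusted p = 0.118).

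The called members with the largest changes besides Rps12 were the 4 rows of Rpl35a, Rpl21, Rpl34 and Rpl26, the first 3 of them under 20 CPM in the negative control. Rpl35a, another gene mutated in Diamond-Blackfan anaemia, rose from 8.63, 11.5 and 11.4 CPM to 22.9, 18.5 and 19.01 CPM (log2 fold change 0.93, SE 0.12, adjusted p = 7.86e-08). The blank control was in between, at 16.98, 16.04 and 13.4 CPM. Rpl21 rose from 3.65, 3.29 and 3.21 CPM to 6.38, 6.59 and 6.27 CPM (log2 fold change 0.92, SE 0.16, adjusted p = 1.54e-05), with the blank control at 3.32, 4.29 and 3.20 CPM. In both the 3 Firre libraries stood above all 6 controls. Rpl34 fell from 10.4, 11.7 and 9.90 CPM to 6.98, 8.08 and 5.48 CPM, with no overlap (log2 fold change -0.63, SE 0.14, adjusted p = 0.000277), though the highest Firre library stood just above the lowest of the blank control, at 10.98, 9.85 and 7.94 CPM. Rpl26, a protein at the tunnel exit that also binds p53 mRNA, rose from 56.6, 50.3 and 58.9 CPM to 90.6, 92.2 and 94.4 CPM (log2 fold change 0.74, SE 0.07, adjusted p = 1.37e-10) with the blank control at 67.8, 54.9 and 61.5 CPM. Of the 8 tested members under 20 CPM in the negative control 2 rose and 1 fell, and of the 72 at or above it 4 rose and 23 fell. Of all genes 27.5% were called higher and 28.4% lower.

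**Figure D2:**
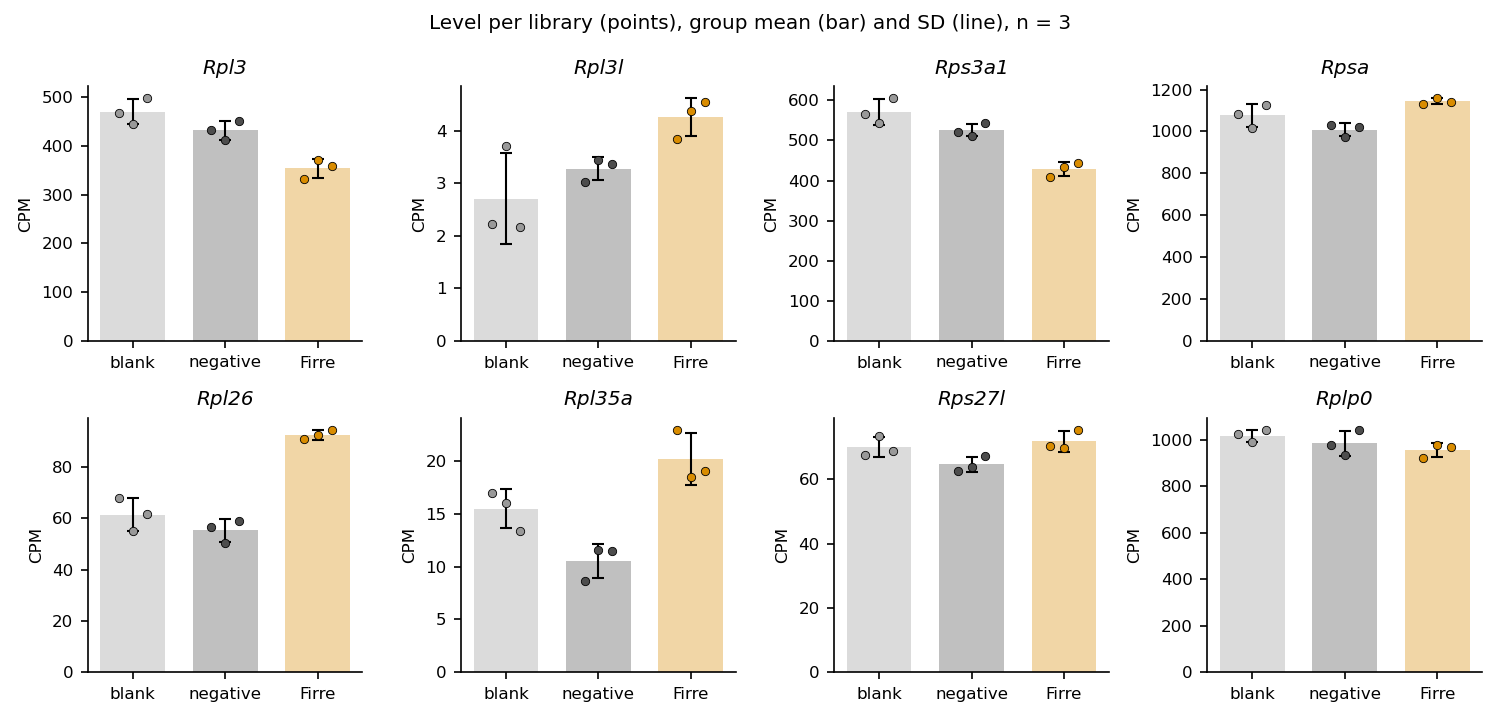
CPM of 8 members in each library (points), with the group mean as a bar from 0 and the SD as a line, n = 3 per group. Rpl3 and Rps3a1 are lowest in the Firre group, Rpl3l, Rpl35a, Rpl26, Rpsa and Rps27l are higher there than in the negative control, and Rplp0 overlaps.

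Paralogs, encoded elsewhere in the genome, were set beside the gene they resemble. Rpl3 and Rpl3l form the pair best known in muscle: Rpl3 sits at the peptidyl transferase centre, and Rpl3l takes its place in heart and skeletal muscle ribosomes. Rpl3 fell from 433, 412 and 450.1 CPM to 332, 371 and 358 CPM, with no overlap (log2 fold change -0.29, SE 0.05, adjusted p = 1.43e-05). Rpl3l stood at 3.03, 3.43 and 3.37 CPM and 3.85, 4.38 and 4.54 CPM. Its Firre libraries were above the negative control but the difference missed the threshold (log2 fold change 0.38, SE 0.19, adjusted p = 0.103), and against the blank control, at 2.23, 3.71 and 2.17 CPM, it was called (log2 fold change 0.63, SE 0.20, edgeR adjusted p = 0.00906). Per kilobase Rpl3l was at 2.38 CPM and Rpl3 at 319.5 CPM in the negative control.

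The other paralog pairs went in several directions. Rpl7l1, a factor of large subunit maturation, rose from 83.9, 90.9 and 91.5 CPM to 100.5, 106 and 96.98 CPM without overlap (log2 fold change 0.19, SE 0.06, adjusted p = 0.00514), whereas Rpl7 fell (log2 fold change -0.20, SE 0.05, adjusted p = 0.000322). Rps27l, a p53 target whose transcript is unique, rose from 62.6, 63.98 and 67.3 CPM to 70.2, 69.7 and 75.5 CPM without overlap (log2 fold change 0.15, SE 0.06, adjusted p = 0.0279), and the blank control, at 67.5, 73.4 and 68.9 CPM, overlapped the Firre group. The call of Rps27l was lost with library totals alone (0.10, adjusted p = 0.165) and without negative control replicate 1 or 2 or Firre replicate 3, and that of Rpl7l1 without negative control replicate 1 (0.15, adjusted p = 0.0516). Rps27, the partner of Rps27l, stood at -0.29 (95% interval -0.60 to 0.01) and was called only without Firre replicate 3 (-0.43, adjusted p = 0.0246), with a replicate block (-0.31, adjusted p = 0.0102) or with copies summed. Rpl22 and Rpl22l1 were at -0.08 (-0.18 to 0.02) and -0.10 (-0.31 to 0.11), and Rpl39 at -0.06 (-0.21 to 0.09). Rps4l is annotated as a pseudogene and is no member.

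Many members cannot be told from their copies by short stretches of sequence. Cutting every GENCODE M21 transcript into all windows of 100 bases, 9 members had only windows found in no other gene, among them Rps3, Rpl22, Rps27l and Rpl3l, and 33 had under 50% of such windows. At least 5% of the windows of 371 annotated rows, mostly processed pseudogenes, were shared with a member, and 70 members had at least 1 such copy. The copies held 14.8% to 15.9% of the counts of members and copies together in each library. Shown next are 90 bases of coding sequence where 2 members differ most from a copy that holds many counts, 5′ to 3′ on the transcribed strand, from GENCODE M21 (mm10), with the differing bases in capitals. Rpl26 (spliced transcript of the gene at chr11:68901583-68906989, plus strand, bases 135 to 224) is set against Gm15772 (chr5:3236518-3236607, plus), and Rpsa (chr9:120127689-120132369, plus, bases 305 to 394) against Rpsa-ps10 (chr3:150073324-150073413, minus).
Rpl26: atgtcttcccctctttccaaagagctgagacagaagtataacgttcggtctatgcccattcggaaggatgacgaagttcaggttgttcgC
Gm15772: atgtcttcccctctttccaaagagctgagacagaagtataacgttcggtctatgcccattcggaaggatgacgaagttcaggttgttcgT
Rpsa: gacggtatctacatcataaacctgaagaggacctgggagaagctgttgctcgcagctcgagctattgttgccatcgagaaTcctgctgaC
Rpsa-ps10: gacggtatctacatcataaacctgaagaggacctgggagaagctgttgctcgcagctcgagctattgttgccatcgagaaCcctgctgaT
Over the whole of each copy the differences were 2 of 438 bases for Gm15772 and 6 of 885 for Rpsa-ps10, and the longest identical stretches were 176 and 350 bases. Both stretches are longer than a single read of 150 bases.

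Some of these members and their copies moved in opposite directions. Of 54 copies with at least 2000 counts over all libraries, 11 were called together with their member, 6 in the same direction and 5 in the opposite one. The opposite ones were Gm15772 of Rpl26, Rpsa-ps10 and AC122453.1 of Rpsa, and Rps3a2 and Rps3a3 of Rps3a1. Each copy that went in the same direction belonged to a different member. Among those in the same direction were Rps12-ps3 at -0.36, Rps6-ps4 at -0.21 and Rpl10a-ps1 at -0.39, beside -0.62, -0.19 and -0.24 for Rps12, Rps6 and Rpl10a. Rpl26 held 1102, 1070 and 1155 counts in the negative control and 1791, 2041 and 1808 in the Firre group. Gm15772 held more, at 6401, 6527 and 6440 against 5087, 6051 and 5356, and it fell by 0.25 on the log2 scale (SE 0.05, edgeR adjusted p = 8.68e-05). Summed over Rpl26 and its 3 copies, the log2 fold change was -0.06 (SE 0.05, adjusted p = 0.357), against 0.74 on its own row. For Rpsa the copy Rpsa-ps10 went from 6353, 6080 and 5845 counts to 2834, 3317 and 2798, a fall of 1.05 (SE 0.06, adjusted p = 4.48e-15), and Rpsa with its 9 copies came to -0.04 (SE 0.05, adjusted p = 0.51) against 0.18 alone. The other way round, Rps3a1 fell while its copy Rps3a2, with 4 differences in 792 bases, rose by 0.47 (SE 0.11, adjusted p = 0.00422), and the sum with copies fell by 0.19 against 0.29 on the member's row. Rpl3-ps1, with 2 differences in 1210 bases from Rpl3, was at 0.11 (adjusted p = 0.0668), and the sum of Rpl3 and its copies fell by 0.17. These copies, and the summing itself, were chosen after the values were seen.

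**Figure D3:**
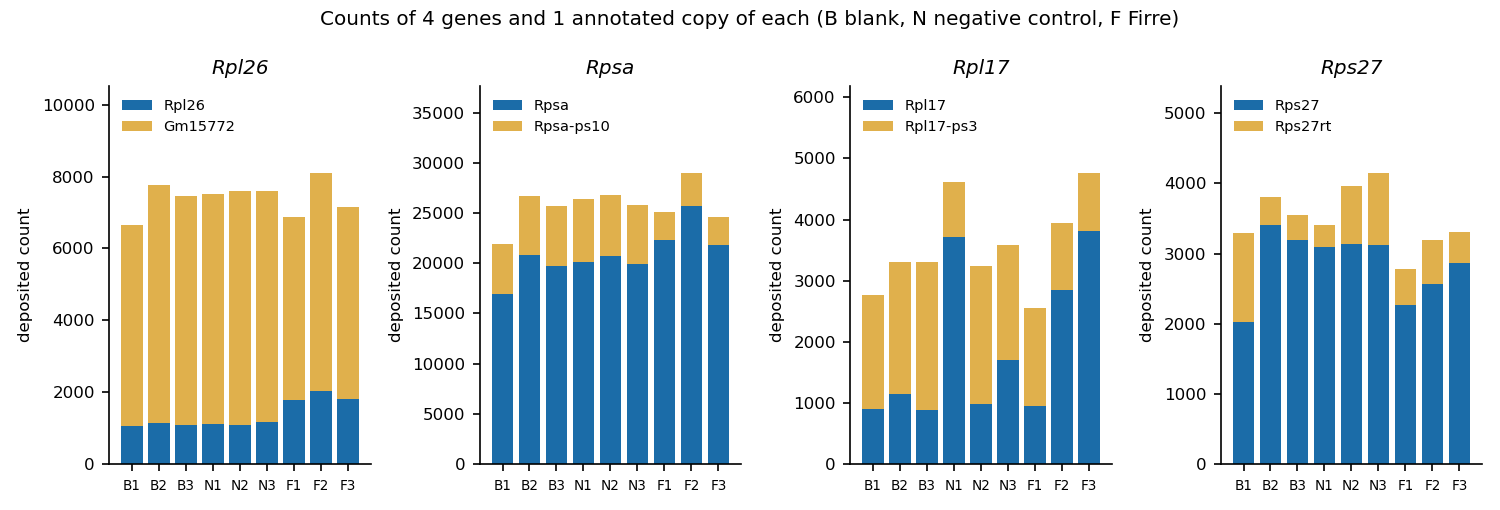
Deposited counts (vertical axis) of 4 members in blue and of 1 annotated copy of each stacked in yellow, in 9 libraries (B blank, N negative control, F Firre group, with the replicate number). The blue part of Rpl26 and Rpsa is larger in the Firre libraries than in the negative control and the yellow part smaller. For Rpl17 in the vector groups and Rps27 in the blank control the blue part varies more between libraries than the stack does.

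Opposite counts in a gene and its copy were also seen between libraries of one group. Rpl17 held 3706, 975 and 1695 counts in the negative control while its copy Rpl17-ps3 held 908, 2261 and 1891. In the Firre group Rpl17 held 941, 2841 and 3805 counts and the copy 1605, 1101 and 953. The library with the most counts for the gene had the fewest for the copy in each of these groups. The highest CPM of Rpl17 was 4.15 times the lowest in the negative control and 4.17 times in the Firre group, and with all its copies summed 1.33 and 1.40 times. Rps27 and the near-identical Rps27rt did this in the blank control, with 2020, 3400 and 3192 counts against 1276, 411 and 359. Rps2, whose 25 copies include Rps2-ps10 with more counts than the gene itself, had 1 blank library (replicate 3) at 28.6 CPM beside 72.9 and 61.7 CPM, and its log2 fold change of 0.46 (SE 0.31, adjusted p = 0.269) was -0.01 with copies.

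With every member summed with its annotated copies, 4 rose and 28 fell of 81 tested between the negative control and the Firre group, their median being -0.09 and their extremes -0.56 and 0.49. Over all 15459 genes tested in that fit, 4311 were called higher and 4457 lower. The calls shared with the members' own rows were 28. Rpl26 and Rpsa lost theirs, and Rpl27a, Rps18, Rps19 and Rps27 gained one, all lower: Rps27 at -0.33 (SE 0.09, adjusted p = 0.00652) and Rps19 at -0.16 (SE 0.05, adjusted p = 0.01). The own row of Rps19 was at -0.01. Its copy Rps19-ps6 went from 714, 565 and 511 counts in the negative control to 133, 161 and 147 in the Firre group. The log2 fold change of this copy was -2.04 (SE 0.17, edgeR adjusted p = 5.33e-07), and its part in the summed fall was not tested. Rpl35a stayed up at 0.49 (SE 0.08, adjusted p = 2.5e-06) and Rpl21 at 0.43 (SE 0.09, adjusted p = 0.000121). Rpl34, whose copies held 96.2% of the summed counts, stayed down at -0.25 (SE 0.09, adjusted p = 0.0309). The small subunit had 1 higher and 16 lower, with a median of -0.14. Among the 14 tested members with at least 90% of their windows unique, which copies touch least, 2 rose and 4 fell on their own rows, with a median log2 fold change of -0.09. Of all genes 27.5% were called higher and 28.4% lower on their own rows, so the share of these members that fell is near background.

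**Figure D4:**
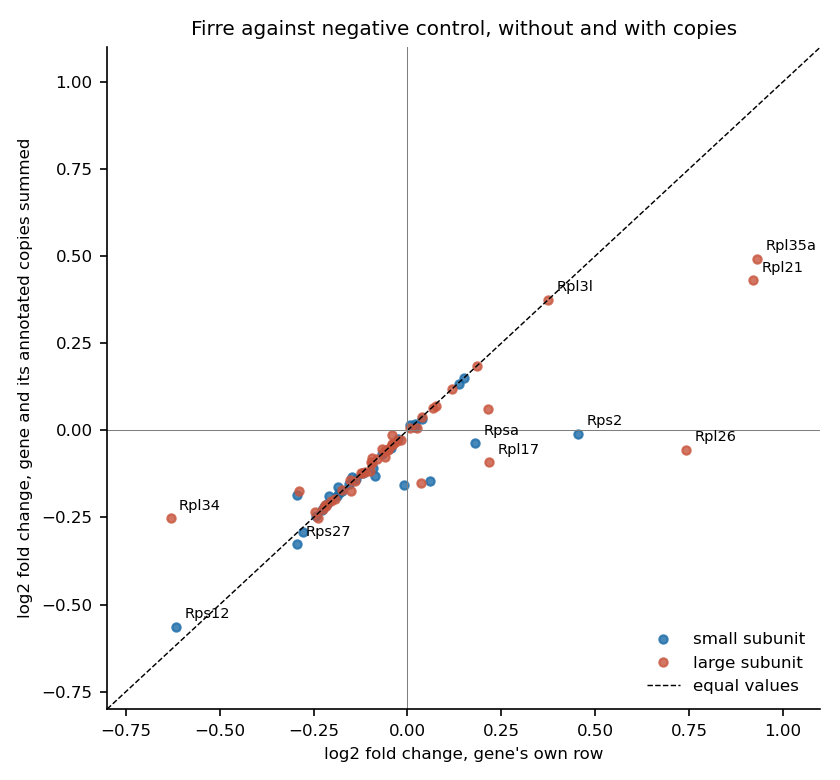
Log2 fold change, Firre group over negative control, of each tested member on its own row (horizontal axis) and summed with its annotated copies (vertical axis), with small subunit genes in blue, large in red and the dashed line marking equal values. Most points lie on the line, Rpl26, Rps2 and Rpsa drop to near 0, and Rpl35a, Rpl21 and Rpl34 keep their sign nearer to 0.

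The negative control, given the vector, and the blank control showed no member past the test in the edgeR fit of all libraries with the low-count filter. Of 80 tested, 0 were called by edgeR in either direction (0.0064% of all genes were called higher and 0.0512% lower, 0.0576% in all), 0 by limma-voom and 1, lower, by DESeq2. Unadjusted p was under 0.05 for 34 members against 8.51% of all genes. The log2 fold change was below 0 for 73 of the 80, with a median of -0.12 against -0.00441 for all genes, and the groups did not overlap for 13 (16.25%, against 13.1% of all). The smallest p was that of Rpl35a, at 16.98, 16.04 and 13.4 CPM for the blank and 8.63, 11.5 and 11.4 CPM with the control vector, without overlap (log2 fold change -0.55, SE 0.12, adjusted p = 0.114). Of the 7 members above 0, Rpl17 was the farthest at 0.98 (SE 0.69), on rows that varied as described. Leaving out negative control replicate 3 gave 5 called members, all lower, where 15 of all 15952 genes were called. Leaving out blank replicate 2 gave 2, also lower (55 of 15918 genes), and leaving out blank replicate 3 gave 1 (7 of 15928). With no low-count filter 9 members were called, all lower, where 98 of 28225 genes were called.

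Shorter members leaned further down in this comparison. Across the 80 members the log2 fold change and the log2 of the coding length had a Pearson correlation of 0.31 and a Spearman correlation of 0.39, a description over genes that share the same 6 libraries. The 27 members with a coding sequence under 400 bases took 0.862%, 0.782% and 0.849% of the counts in the blank control, 0.728%, 0.695% and 0.797% in the negative control and 0.635%, 0.657% and 0.714% in the Firre group. In the comparison of the Firre group with the negative control, the same correlations were 0.00 and -0.08. The part of length in the result was not tested.

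Against the blank control the Firre group showed more falls. Of 80 tested members 5 rose and 47 fell (65%), where 27.3% of all genes were called higher, 28.9% lower and 56.3% in all, and the groups did not overlap for 53 (66.25%, against 60.5% of all). The median was -0.22 against -0.01 for all genes. Those that rose were Rpl21, Rpl3l, Rpl26, Rpl35a and Rpl7l1, at 0.82, 0.63, 0.59, 0.38 and 0.16. By the smallest p the falls led with Rps3a1 at -0.41 (SE 0.05, adjusted p = 9.51e-09), Rpl3 at -0.41 (SE 0.05, adjusted p = 3.73e-08), Rps3 at -0.37 (SE 0.05, adjusted p = 4.65e-08) and Rpl11 at -0.34 (SE 0.05, adjusted p = 2.04e-07). For 53 of the 80 tested members the group means were ordered blank above negative control above Firre. The 3 comparisons share libraries, so this order is a description. Summing copies left 3 members higher and 57 lower, where 4268 of all 15459 genes were called higher and 4514 lower.

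**Figure D5:**
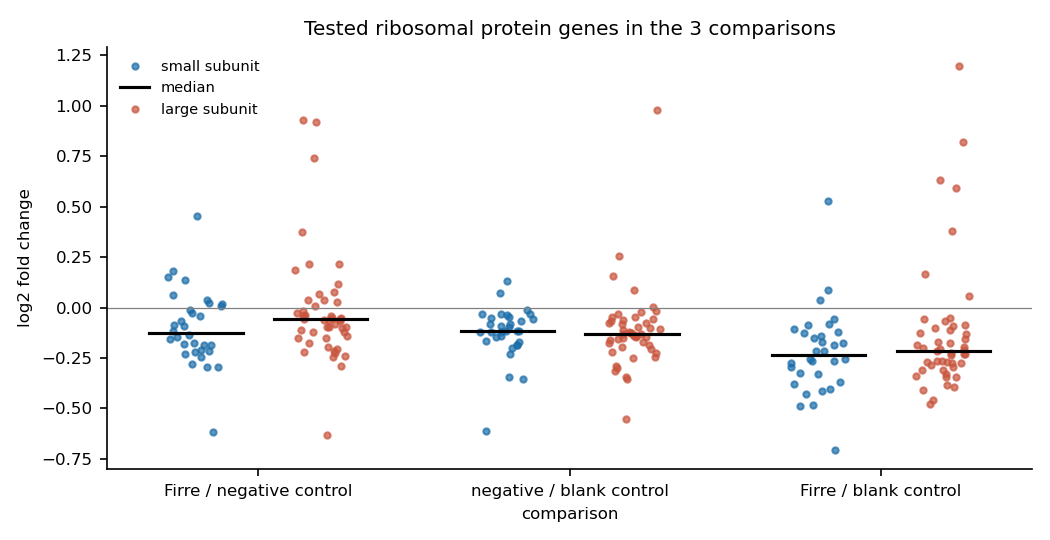
Log2 fold change (vertical axis) of the tested members in the 3 comparisons, small subunit in blue and large in red, with a black line at each median. Medians over all members are -0.07 for Firre over negative control, -0.12 for negative over blank control and -0.22 for Firre over blank control.

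Ribosomal proteins whose symbols fall outside the naming rule were read beside the members. Rack1, a small subunit protein that docks kinases, fell from 684 ± 14.7 CPM with the control vector to 589 ± 16.9 CPM with the Firre vector (SD, n = 3; log2 fold change -0.22, SE 0.05, adjusted p = 0.000193). Fau, made as a fusion with a ubiquitin-like protein, was at -0.08 (SE 0.06, adjusted p = 0.211). Rpl36al was a near-empty row of 0.560 ± 0.317 CPM in the negative control, at 0.11 (SE 0.45).

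Genes that act with the ribosome did not follow one direction, and all calls here compare the Firre group with the negative control. Of 36 initiation factors 12 rose and 5 fell, with a median of 0.05, led by Eif2b4 of the eIF2B exchange factor (35.2 ± 1.27 to 53.7 ± 1.77 CPM; log2 fold change 0.61, SE 0.07), Eif4g3 (-0.36, SE 0.05) and the poly(A)-binding protein Pabpc1 (-0.33, SE 0.04). Of 10 elongation and release factors 1 rose and 2 fell. Eef1a2, the eEF1A isoform of mature muscle and neurons, rose from 359 ± 16.5 to 730 ± 19.0 CPM (1.03, SE 0.06, adjusted p = 1.43e-12), while Eef1a1, the widely expressed isoform, fell from 6056 ± 115 to 5329 ± 113 CPM (-0.18, SE 0.04, adjusted p = 0.00038) and Eef1b2 was at -0.32 (SE 0.05). Of 20 other known TOP mRNAs, some of them also in the lists above, 3 rose and 9 fell with a median of -0.10, led by Hnrnpa1 (-0.50, SE 0.05), Nap1l1 (-0.41, SE 0.05) and Pabpc1.

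Calls among factors that build ribosomes also went both ways. Of 74 biogenesis and RNA polymerase I genes 12 rose and 24 fell (median -0.04). Ppan, needed for large subunit maturation, fell from 37.8 ± 3.30 to 23.4 ± 2.54 CPM (-0.69, SE 0.08), and the largest RNA polymerase I subunit Polr1a rose from 109 ± 4.5 to 148 ± 5.61 CPM (0.45, SE 0.05), as did the helicase Dhx37 (0.47, SE 0.06). Of 19 genes that control ribosomal protein mRNAs through mTORC1, LARP1 or MYC, 7 rose and 4 fell (median 0.05). The MAX partner Mnt fell (-0.83, SE 0.07), Mycn fell (-1.28, SE 0.13) and Larp1b rose (0.57, SE 0.06). Picked after their values were seen, Mtor rose from 94.3 ± 2.52 to 129 ± 6.49 CPM (0.45, SE 0.05), Myc fell from 73.7 ± 3.86 to 59.1 ± 3.10 CPM (-0.32, SE 0.06) and Larp1 was at -0.08 (SE 0.05, adjusted p = 0.127). Of 15 p53 pathway genes 4 rose and 5 fell: the cell cycle inhibitor Cdkn1a was at 0.49 (SE 0.05), Ccng1 at 0.48 (SE 0.05) and Plk3 at -0.75 (SE 0.09), all called. The called members of these 6 lists were 17 of 36, 3 of 10, 12 of 20, 36 of 74, 11 of 19 and 9 of 15, beside 56.0% of all genes, and in each list calls went both ways.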

How the data were processed

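RNA was measured in 9 libraries, 3 each of blank control, negative control and Firre overexpression, grouped by their titles. The authors deposited raw, unnormalized read counts for each Ensembl gene. FastQC, Trimmomatic, STAR, featureCounts and the mm10 build are named in the submitters' processing notes, without versions or settings. The deposited table nevertheless closes with tally lines of the kind HTSeq writes, so which program counted reads on members and copies is unsettled. So is the RNA selection, since the labels name both polyA RNA and rRNA depletion. Lines that name no gene, 16.3% to 17.4% of all counts, stayed out of library sizes and tests. Among them, reads not uniquely aligned made up 7.06% to 8.21% of all counts. Of 55487 identifiers 55227 matched GENCODE M21. The library kit marks strand, but whether counting used it is not stated, so overlapping and antisense genes are uncertain, as are genes with near-identical copies.

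All 9 libraries entered a single fit (edgeR 4.0.16 in R 4.3.3, quasi-likelihood F test, robust prior, TMM, filterByExpr with minimum count 10 and minimum total 15, 6 residual degrees of freedom). P-values were adjusted over all 15633 genes tested by Benjamini-Hochberg, with a threshold of 0.05. The SE is the size of the log2 fold change divided by the root of F. The 95% intervals are nominal, built from the SE with the normal distribution, and are narrower than the F test implies. That of Rpl10 leaves out 0 at an unadjusted edgeR p of 0.0516. Alternatives were DESeq2 1.42.0 and its size factors, limma-voom 3.58.1, library totals, other filters, 2-group fits, a replicate block, each library left out and, added after seeing the data, members summed with annotated copies, rows under 5000 bases long that share at least 5% of their 100-base windows with a member and do not overlap it. Only the edgeR fit was tested on simulated data. Depth limits counting error only, and that error is small at the levels of most members.

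The members and the gene lists were chosen with earlier results of these data known. Genes were named by rule: members called with a change of at least 0.3 and groups that do not overlap, the 3 highest per length, the paralog pairs, members with a role of their own, at most 4 per direction by p in the other comparisons, the 3 smallest p of each other list, and ribosomal proteins outside the naming rule. Members named beyond it were chosen after their values were seen. One gene of the ribosomal proteins outside the naming rule is not reported here.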

Additional observations from a re-analysis of the deposited data

How the results depend on the processing

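Of 30 named members tested between the negative control and the Firre group, all kept direction and call under DESeq2, its size factors, limma-voom, a minimum of 1 CPM in every library and a fit of the 2 groups alone. Summing copies reversed Rpl26 (-0.0555) and Rpsa (-0.0374). Leaving out 1 library reversed members that lay near 0 and were not called: over such fits Rpl39 ranged from -0.145 to 0.0330 (above 0 without negative control replicate 3 or Firre replicate 2), Rpl41 from -0.183 to 0.00690 (above 0 without negative control replicate 3) and Rps19 from -0.0383 to 0.0408 (above 0 without negative control replicate 3 or Firre replicate 1). The cause was not tested. Counts of called members stayed within 1.5 times, except for members lower in the negative than in the blank control, which went from 0 to 9 with no low-count filter, 1 with DESeq2, 1 with copies summed and 0 to 5 with 1 library left out, and for members higher in the Firre group than in the blank control, 3 with copies summed against 5. With library totals alone Rpl10, Rpl13a, Rpl22 and Rplp1 were also called, all lower. Replicate numbers are shared between groups. Deviations of same-numbered libraries correlated at -0.04 to 0.03 over 9 pairs, and those of other-numbered libraries at -0.05 to 0.06 over 18. No pairing by number was thus seen over all genes, and such a correlation cannot show pairing confined to some of them. With the replicate block 6 members rose and 30 fell, where 4208 of all 15633 genes were called higher and 4384 lower. Rps12 lost its call there and Rps27 gained one. Rpl24, Rpl10l and Rpl39l were below the low-count filter, and how far depth limits them was not tested.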
